A study of Homo sapiens with 4 samples.

Results

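The cadherin and protocadherin gene sites were the motif cytosines whose nearest gene, as named in the tables, carried a symbol made of CDH and a number or starting with PCDH. They were chosen by the name alone, and 222 of the 15177 distinct sites in the 6 tables met this rule, at 26 gene names. The measurements came from BisChIP-seq, in which DNA pulled down with an antibody was treated with bisulfite, so that unmethylated cytosines were read as thymine and methylated ones as cytosine. All libraries were made from HEK-293T cells, a human embryonic kidney line, that overexpressed the DNA methyltransferase DNMT3A from the plasmid DNMT3A-pLX304. The GR anti-Flag library and its IgG control came from cells that also carried GR-pCMV14, which encodes the glucocorticoid receptor, and that received 4 nM dexamethasone 24 hours after transfection and were collected after a further 24 hours. The BMAL1-CLOCK anti-Flag library and its IgG control came from cells with BMAL1-pCMV14 and CLOCK-pCMV14, to which no dexamethasone was given. The factors were thus overexpressed from plasmids in every library, controls included. Each of the 4 libraries was a single sample, so no value below has a replicate, and each interval covers counting error only.

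Cadherins are calcium-dependent adhesion proteins of the cell surface that bind their like on the neighbouring cell. Classical cadherins are tied to the actin skeleton through catenins, whereas protocadherins share the extracellular repeats and have other cytoplasmic tails. Many of both kinds are most active in the nervous system, and many of the genes are long and flanked by wide stretches with few other genes. A kidney-derived line is not the tissue in which most of them are best known, and gene expression was not measured in these libraries.

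The motifs read are given first, since each site is defined by them. The half-site of the glucocorticoid response element was read at its cytosine in position 5, counted from the 5′ end, as AGAACA in some tables and as TGTTCT in others. The E-box CACGTG was read at the cytosine in position 1. None of these cytosines is followed by guanine in its motif, so all levels below are for non-CpG positions. AGAACA and TGTTCT are the same hexamer on opposite strands, and the tables that differ in motif were kept apart unless stated.

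The member site nearest to a transcription start site (TSS) lay at PCDH11X, a protocadherin gene of the X chromosome. It was an AGAACA cytosine at chrX:90976966 (hg18, plus strand), 149 bp from the TSS, and none of its 4 reads was methylated in the GR IgG control. The promoter of this gene in RefSeq (GRCh38.p14, chrX:91835211-91835510, plus strand, 250 bases before to 50 after the start) is shown since it holds a match to that half-site, in capitals, with its cytosine 150 bases before the start.

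PCDH11X: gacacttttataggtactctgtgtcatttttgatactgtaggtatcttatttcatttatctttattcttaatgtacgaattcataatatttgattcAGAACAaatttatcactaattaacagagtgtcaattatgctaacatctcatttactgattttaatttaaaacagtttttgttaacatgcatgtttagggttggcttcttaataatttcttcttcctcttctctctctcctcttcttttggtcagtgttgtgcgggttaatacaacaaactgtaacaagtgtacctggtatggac

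The bases come from another build than the tables, which use hg18, so the match rests on the motif, the strand and the distance alone. PCDH11X has a closely similar copy on the Y chromosome, and reads from the copies may be hard to place. Over RefSeq promoter windows of this length, 14.8% of 35116 held AGAACA or TGTTCT and 7.26% held CACGTG, read 5′ to 3′ on the gene's strand. Among the 90 windows of cadherin and protocadherin genes, 17 (18.9%) held a half-site and 3 (3.33%) held the E-box. The half-site spellings are reverse complements and the E-box is its own, so both strands were covered. These counts describe letters in a window and not binding.

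The sites were unevenly spread over the genes. PCDH9 was named at 71 sites and PCDH20 at 64, together 135 of the 222 (60.8%). PCDH9 encodes a delta-1 protocadherin and PCDH20 another protocadherin outside the gene clusters, and both genes lie on chromosome 13. They held 71 of the 104 member sites of the GR library, 43 of the 61 of its IgG control and 21 of the 57 of the BMAL1-CLOCK library. PCDH9 had 35, 18 and 18 sites in these libraries, and PCDH20 had 36, 25 and 3. Their share of the members was thus 68.3% for GR, 70.5% for IgG and 36.8% for BMAL1-CLOCK. PCDH15, which encodes a protein of the hair-cell tip link, followed with 12 sites, 6 in each anti-Flag library and none in the GR IgG control. No other gene had more than 8. Outside the members the GR library listed 8003 sites and its IgG control 2654. A small gene count in GR with none in the control was thus not shown to be a difference.

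Of the 26 names, 7 occurred in each of the 3 libraries with members, namely CDH2, CDH4, CDH8, CDH10, CDH13, PCDH9 and PCDH20. A further 8 occurred in 2 libraries and 11 in 1 library, and 9 names had only 1 site. The members made up 12 of 1149 sites (1.04%) for GR AGAACA, 92 of 6958 (1.32%) for GR TGTTCT, 47 of 2100 (2.24%) for IgG AGAACA, 14 of 615 (2.28%) for IgG TGTTCT and 57 of 4353 (1.31%) for BMAL1-CLOCK CACGTG. The BMAL1-CLOCK IgG control held 2 sites in all, neither of them a member. The E-box sites therefore had no control library to be set against.

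By role, the type I classical cadherins were represented by 2 of their 5 protein-coding genes, CDH2, the neural cadherin, and CDH4, the retinal cadherin, with 12 sites. The type II classical cadherins had sites at 10 of 13 genes and 40 sites in all. Among them CDH8 had 8 sites, CDH10 and CDH18 had 7 each and CDH12 had 6. CDH9 followed with 4 sites and CDH6 with 3. Other cadherins had sites at 2 of 5 genes, 3 at CDH13, whose protein is held by a lipid anchor and lacks a cytoplasmic tail, and 1 at CDH26. The delta-1 protocadherins had 77 sites at 3 of 5 genes, 71 at PCDH9, 4 at PCDH7 and 2 at PCDH11X. The delta-2 protocadherins had 6 sites at 3 of 5 genes. Of these, 4 were at PCDH19, a gene of the X chromosome known for its link to epilepsy. All 4 were in the GR library, which listed the most sites. The remaining non-clustered protocadherins, PCDH15 and PCDH20, had 76 sites.

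The clustered protocadherins, which give neurons distinct surface identities, had few sites. They are 53 protein-coding genes side by side on chromosome 5, and the tables named only PCDHA1, PCDHB1 and PCDHB18 there, with 6 sites between them. Site density was counted around PCDHB1 and not over the clusters alone. It was below the average of the chromosomes for GR and above it for IgG and BMAL1-CLOCK. Within 1 Mb of the PCDHB1 TSS there were 2 GR, 2.5 IgG and 2 BMAL1-CLOCK sites per Mb, whichever gene they were assigned to. Over chromosomes 1 to 22 and X there were 2.74, 0.904 and 1.48. The 6 sites lay 2529 to 37419 bp from a TSS, with a median of 11223 bp. The medians of the other named groups ranged from 147736 bp in the delta-2 protocadherins to 600664 bp in PCDH15 and PCDH20. Reads from near-identical genes of the clusters may not be placed with certainty. PCDHX was named at 1 site, and neither it nor PCDHB18 was matched to a current symbol. PCDHB18 is therefore not among the 53 genes, and the 26 names may not all be separate genes.

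Most member sites lay far from a TSS. For GR TGTTCT, 76 of 92 member sites (82.6%, exact 95% interval 73.3 to 89.7%) were more than 100 kb from the TSS, against 29.9% (28.8 to 31.0%) of all other sites of that table. The median distance was 433 kb in the members and 42.4 kb in the others. For BMAL1-CLOCK CACGTG, 44 of 57 member sites (77.2%, 64.2 to 87.3%) were beyond 100 kb, against 38.2% of the others, with medians of 288 and 62.2 kb. In the IgG control the members' shares were 36 of 47 (76.6%, 62.0 to 87.7%) for AGAACA against 40.2%, and 10 of 14 (71.4%, 41.9 to 91.6%) for TGTTCT against 41.4%. For GR AGAACA the share was 7 of 12 (58.3%, 27.7 to 84.8%) against 26.6%. In each of the 5 tables with members the others' share lay below the members' interval. The intervals treat sites as separate draws, although those of 1 gene share their surroundings.

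PCDH9 and PCDH20, which held many of the members, both lie on chromosome 13. Other sites on that chromosome, which were not members, were beyond 100 kb in 72.4% (GR AGAACA), 60.5% (GR TGTTCT), 74.1% (IgG AGAACA), 67.3% (IgG TGTTCT) and 60.7% (BMAL1-CLOCK) of cases. Without PCDH9 and PCDH20, 25 of the 33 remaining member sites of the GR library (75.8%, 57.7 to 88.9%) and 27 of 36 of the BMAL1-CLOCK library (75%, 57.8 to 87.9%) were beyond 100 kb. In the IgG control 9 of 18 were (50.0%, 26.0 to 74.0%), an interval that includes the 40.5% of its other sites. The median distance of the remaining member sites was 205 kb for GR, 300 kb for BMAL1-CLOCK and 111 kb for IgG. Over all members the medians were 421, 288 and 386 kb, and over the other sites 41.5, 62.2 and 63.8 kb. The part of chromosome 13 in the members' distance was not tested, nor was a difference between the libraries.

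The farthest sites were at PCDH7, 1669103 bp away in the IgG control and 1649588 bp away in the BMAL1-CLOCK library, and at CDH2, 1343300 bp away in the GR library. Of the 222 members, 82 were more than 500 kb from the TSS, 42 of them GR, 24 IgG and 16 BMAL1-CLOCK sites. These were 40.4%, 39.3% and 28.1% of the members of the 3 libraries, against 5.79%, 11.3% and 9.66% of other sites. Within 5 kb lay 1.92%, 3.28% and 1.75% of the members, against 11.7%, 7.05% and 7.70% of other sites. The members within 5 kb numbered 5. Apart from the PCDH11X site, these were PCDH9 at chr13:66702087, 377 bp from the TSS with 4 unmethylated GR reads, and CDH18 at chr5:20017585, 541 bp away, also with 4 unmethylated GR reads. CDH26 at chr20:57967537 lay 661 bp away with 4 unmethylated BMAL1-CLOCK reads, and PCDHB18 at chr5:140591592 lay 2529 bp away with 5 unmethylated reads in the IgG control. None of these 5 member sites had a methylated read. Of all other sites of the GR, IgG and BMAL1-CLOCK libraries 96.9%, 72.5% and 94.5% had none either, so this is no result about the members. The next nearest BMAL1-CLOCK sites were both at PCDH9, chr13:66707754 (5290 bp, 0 of 8 reads methylated) and chr13:66382390 (6652 bp, 0 of 4). In the IgG control the next was CDH22 at chr20:44321913 (8174 bp, 0 of 4), and in the GR library PCDH9 at chr13:66691431 (11033 bp, 0 of 4).

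The genes with fewer sites are described by group. At CDH2 the 7 sites lay 71677 to 1343300 bp from the TSS with 4 or 5 reads each, and 1 of them, at chr18:24688269 in the IgG control, had a methylated read. At CDH4, 5 sites lay 95361 to 540713 bp away, and the farthest, at chr20:58720240 in the BMAL1-CLOCK library, had 1 of 5 reads methylated. Neither type I gene had a site within 50 kb of its TSS.

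Of the type II genes, CDH8 had the most sites. The 8 CDH8 sites lay 127249 to 1192581 bp away and each had exactly 4 reads, 1 of them methylated at chr16:59583869. The 7 CDH10 sites lay 77622 to 317520 bp away, also with 4 reads each. CDH18 ranged from the site at 541 bp to 865022 bp, and its 1 methylated read of 7 was at chr5:19436376, 485762 bp away. CDH12 had 6 sites at 28141 to 310784 bp, CDH9 had 4 at 9633 to 722626 bp, and none of these 10 sites had a methylated read. CDH6 had 3 sites at 445548 to 965712 bp.

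Among the protocadherins outside chromosome 13, the 12 PCDH15 sites ranged from 13479 to 953167 bp and had 4 to 11 reads. PCDH7 had no site nearer than 465973 bp, whereas the 4 PCDH19 sites lay 19091 to 172557 bp away, with 4 or 5 reads and none methylated. The 3 sites of the cadherin gene CDH13, 1 in each library, lay 128611 to 427933 bp away and were unmethylated in all their 4 reads each. At these genes the sites were thus scattered over long distances rather than gathered at the start.

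The positions and distances together gave the TSS that each site had been measured from. For PCDH20, 63 sites shared a TSS at chr13:60900080 (hg18), and all 63 lay on the side of higher coordinates, 314426 to 1149448 bp away. The start behind the last PCDH20 site, in the GR library and 244954 bp from it, was not resolved. For PCDH9, 50 sites were measured from chr13:66702464, 45 of them on the higher side, and 21 from chr13:66375738, 10 on the higher and 11 on the lower side. PCDH15 also had sites measured from 2 starts, 7 sites from chr10:56231057 and 5 from chr10:57057708. Whether a site lay in an exon, an intron or a UTR was not analysed here, for want of an hg18 annotation.

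On chromosome 13 the PCDH20 start also lay between a side with few sites and a side with many, whichever gene they were assigned to. The place was chosen after the counts were seen. In the 10 Mb on its lower side the GR library had 15 sites and in the 10 Mb on its higher side 187, a ratio of 12.5. The IgG control had 8 and 138 (17.2 times as many), and the BMAL1-CLOCK library 16 and 81 (5.06 times). Per bin of 1 Mb, the GR library had 0 to 3 sites on the lower side and 7 to 34 on the higher side, and the IgG control had 0 to 3 and 5 to 22, so these bins did not overlap. The BMAL1-CLOCK library had 0 to 5 and 3 to 13, which overlapped. In the first 1 Mb above the start every site was a member, and the nearest lay 314426 bp away. The counts thus did not rise at the start itself. In the BMAL1-CLOCK library the bin just below the start held 5 sites and the bin just above it 3. Without members the sides differed too, with 14 against 117 other sites in the GR library. The IgG control had 7 against 95 and the BMAL1-CLOCK library 16 against 60. The sides thus differed in the IgG control as well as in both anti-Flag libraries, and the part of the antibody in this was not tested. Copy number and read placement along the chromosome were not measured here, and their part in this difference was not tested.

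Within 1 Mb of its TSS, PCDH9 had 24 GR, 12.5 IgG and 10 BMAL1-CLOCK sites per Mb, and PCDH20 had 18.5, 11.5 and 4. Over chromosomes 1 to 22 and X the same libraries had 2.74, 0.904 and 1.48 sites per Mb. PCDH19 had 8.5, 2 and 3. The other 12 genes with a resolved start and at least 3 sites had 0 to 4 GR, 0 to 2.5 IgG and 0 to 3 BMAL1-CLOCK sites per Mb. High counts at PCDH9 and PCDH20 were thus counts of a region rich in sites in the control as well.

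Repeats, written in lower case in the GR tables, were no more common among members than among other sites. They held 38 of 92 member sites (41.3%, 31.1 to 52.1%) for GR TGTTCT against 44.2%, and 4 of 12 (33.3%) for GR AGAACA against 42.3%. In the IgG control they held 23 of 47 (48.9%, 34.1 to 63.9%) for AGAACA against 67.5%, and 2 of 14 (14.3%, 1.78 to 42.8%) for TGTTCT against 47.9%. In both control tables the others' share lay above the members' interval. Other sites on chromosome 13 had shares of 58.0% and 29.1% in these control tables, both within the members' intervals. The table of CACGTG sites does not mark repeats.

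The depth of member sites was at the floor of the tables, which list cytosines with at least 4 reads. The median was 4 reads in members and in other sites of each of the 5 tables. Exactly 4 reads covered 68 of 92 member sites (73.9%) for GR TGTTCT, 36 of 47 (76.6%) for IgG AGAACA and 30 of 57 (52.6%) for BMAL1-CLOCK, against 79.2%, 75.9% and 55.7% of the other sites. At 4 reads a site can only show levels of 0, 25, 50, 75 or 100%. No methylated read among 4 allows a level of up to 60.2% by the exact interval (75% by a floor of 3 counts). The deepest, at PCDH15 (chr10:57265064, BMAL1-CLOCK), had 11 reads, and other sites of that library reached 21. GR members reached 7 reads, and other GR sites 3393, or 374 without those of the mitochondrial genome, NR3C1 and DNMT3A. The next were PCDH9 at chr13:66517556 with 0 of 10 reads methylated, PCDH15 at chr10:56053928 with 0 of 9 and PCDH9 at chr13:66484445 with 1 of 9, all in the BMAL1-CLOCK library. In the GR library the deepest were PCDH20 at chr13:61466543 and chr13:61352450, each with 0 of 7 reads methylated.

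Member sites of the GR library were nearly all unmethylated, and those of its IgG control less so, as were the other sites of these tables. In the GR library 102 of 104 member sites (98.1%) had no methylated read, against 96.9% of other sites, and in the IgG control 43 of 61 (70.5%) had none, against 72.5%. By motif the GR members gave 12 of 12 (73.5 to 100%) for AGAACA against 96.1% of other sites, and 90 of 92 (97.8%, 92.4 to 99.7%) for TGTTCT against 97.0%. The IgG members gave 33 of 47 (70.2%, 55.1 to 82.7%) against 70.3%, and 10 of 14 (71.4%, 41.9 to 91.6%) against 79.7%. In the BMAL1-CLOCK library 50 of 57 (87.7%, 76.3 to 94.9%) had none, against 94.5%. The others' share lay within the members' interval in each of these 5 tables, so no difference in this share was detectable at this depth.

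At PCDH20 and PCDH9 the GR library and its control were set side by side, first with both motifs summed. At PCDH20 a methylated read was found at 1 of 36 GR sites and at 9 of 25 IgG sites. Of its GR reads 1 of 163 was methylated (0.613%, 0.0155 to 3.37%), and of its IgG reads 10 of 108 (9.26%, 4.53 to 16.4%). At PCDH9 it was 0 of 35 GR sites and 5 of 18 IgG sites. Of its GR reads 0 of 154 were methylated (exact interval 0 to 2.37%), and of its IgG reads 7 of 78 (8.97%, 3.68 to 17.6%). With both motifs summed, the intervals of the libraries thus did not overlap at either gene. The other sites of these libraries differed in the same direction, with 2.23% of GR reads and 7.11% of IgG reads methylated. The motif mix differed, since 31 of the 35 GR sites of PCDH9 were TGTTCT and 13 of its 18 IgG sites AGAACA. Among TGTTCT sites PCDH9 had no methylated read in either library, with 136 GR and 21 IgG reads. All 7 methylated IgG reads of PCDH9 were at AGAACA, with 57 reads there (12.3%, 5.08 to 23.7%), where GR had 4 sites and 0 of 18 reads methylated. At TGTTCT sites of PCDH20, 1 of 138 GR reads (0.725%, 0.0183 to 3.97%) and 2 of 25 IgG reads (8%, 0.984 to 26.0%) were methylated. At its AGAACA sites it was 0 of 25 GR reads and 8 of 83 IgG reads (9.64%, 4.25 to 18.1%). Within each motif of both genes the intervals of the libraries overlapped, but each such comparison had only 18 to 25 reads in 1 library. In the BMAL1-CLOCK library PCDH9 had 3 of 18 sites with a methylated read and 3 of 102 reads (2.94%, 0.611 to 8.36%). These are values of 1 library each at mostly different positions, and they compare libraries rather than conditions.

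Over all reads at member sites, the methylated share was 0 of 55 for GR AGAACA (at most 5.45%, others 1.93%), 2 of 399 for GR TGTTCT (0.501%, 0.0608 to 1.80%, others 2.31%), 18 of 203 for IgG AGAACA (8.87%, 5.34 to 13.7%, others 7.55%), 4 of 58 for IgG TGTTCT (6.90%, 1.91 to 16.7%, others 6.02%) and 7 of 295 for BMAL1-CLOCK (2.37%, 0.959 to 4.83%, others 1.21%). The others' level lay outside the members' interval for GR TGTTCT alone. Other sites beyond 100 kb in that table had 0.801%, which is inside it. Without mitochondrial, NR3C1 and DNMT3A sites the others had 2.61%, which is outside it. The mean of site levels, which does not weight by reads, was 0.489% in members and 1.56% in all others. That 1.56% is inside the interval, so the difference depended on pooling reads. A read that kept its cytosine was counted as methylated, and the share of such reads left by incomplete conversion was not measured here.

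Levels of 50% or more were rare. No member reached 50% in the GR library, where 92 TGTTCT sites with none allow a share of up to 3.26% (others 1.57%), nor among the 57 sites of the BMAL1-CLOCK library (up to 5.26%, others 0.116%). In the IgG control 1 of 61 did (1.64%, others 2.19%), at PCDH20 (chr13:61645265, minus strand), where 2 of 4 reads were methylated, 745185 bp from the TSS.

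The GR library had methylated reads at 2 member sites, both TGTTCT, in repeats and more than 800 kb from the TSS. They were PCDH15 at chr10:55401573 with 1 of 5 reads and PCDH20 at chr13:61733505 with 1 of 4. The control had 18 such sites. Besides the site at 50%, 3 of them had 2 methylated reads, PCDH9 at chr13:66417725 with 2 of 5, PCDH9 at chr13:66889491 with 2 of 6 and CDH6 at chr5:30263840 with 2 of 6. The remaining 14 had 1 methylated read of 4 to 7. They were 8 sites of PCDH20, 3 of PCDH9 and 1 each of CDH2, CDH10 (chr5:24377384) and PCDH11X (chrX:91010556, 33441 bp from the TSS). The PCDH20 sites ran from chr13:61214506, 314426 bp from the TSS, to chr13:61925131, 1025051 bp away, and the PCDH9 sites were chr13:66201003, chr13:66799811 and chr13:67367631. In the control they were thus spread along both genes' surroundings and not gathered at 1 place. In the BMAL1-CLOCK library 7 sites had 1 methylated read each, 3 at PCDH9 and 1 each at CDH4, CDH8, CDH18 and PCDHB1. The PCDHB1 site, at chr5:140421176 with 1 of 5 reads, was the closest to a TSS of these, at 10014 bp.

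Each site was tested against the pooled level of its table by a one-sided exact binomial test with Benjamini-Hochberg adjustment over the whole table. The test called 1.13% of all GR AGAACA sites and 1.15% of all GR TGTTCT sites, and none of the 12 and 92 members. It called 0.0952% of IgG AGAACA sites and 0.325% of IgG TGTTCT sites, and none of the 47 and 14 members. It called 0.0459% of BMAL1-CLOCK sites and none of its 57 members. At an unadjusted exact p under 0.05 there were 2 IgG AGAACA members, PCDH20 at chr13:61645265 (p = 0.0310) and PCDH9 at chr13:66417725 (p = 0.0491). There were also 2 BMAL1-CLOCK members, PCDH9 at chr13:67135731 and CDH8 at chr16:59583869, each with 1 of 4 reads and an exact p of 0.0483. The same unadjusted threshold was passed by 60 of 2053 other IgG AGAACA sites and 119 of 4296 other BMAL1-CLOCK sites. The adjusted p was 1 for all members. A count of none among so few members is near that background and is no result about them.

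Sites read in both the GR library and its control were compared directly. Of 77 such sites, 7 (9.09%) differed by a two-sided Fisher's exact test at an adjusted p under 0.05, and only 1 of the 77 was a member, which was not called. This was the TGTTCT cytosine of PCDH9 at chr13:67153723 (plus strand), 451259 bp from the TSS, with 5 unmethylated reads for GR and 4 for IgG and no methylated one (exact p = 1).

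The hexamers carry a motif cytosine on each strand, and 4 member hexamers were read on both strands. In the IgG control the PCDH20 hexamer at chr13:61841443-61841448 had 1 of 4 reads methylated on the minus strand and 0 of 4 on the plus strand. In the BMAL1-CLOCK library the PCDHB1 hexamer at chr5:140421176-140421181 had 1 of 5 on the plus and 0 of 4 on the minus strand. The PCDH9 hexamers at chr13:66484445-66484450 and chr13:67135731-67135736 had 1 of 9 and 1 of 4 on the plus strand against 0 of 4 and 0 of 7 on the minus strand. Each of the 4 hexamers had a single methylated read, which can only lie on 1 strand, so the strands could not be compared. The GR library had no member hexamer read on both strands. Sites less than 200 bp from a neighbour numbered 30 in 14 groups, so the 222 sites stood at 206 separate places.

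Genes that work with cadherins and were not members also had sites, at 14 of the 26 genes listed for this purpose and 84 sites in all. Desmosomal cadherins, which join cells under strain, had 52 sites at 6 of 7 genes, 76.9% of them beyond 100 kb. The large cadherins FAT3, FAT4 and DCHS2 had 20 sites, 80.0% beyond 100 kb. Catenins, the intracellular partners of the classical cadherins, had 6 sites at CTNNA1, CTNNA2 and CTNND2, and calsyntenins had 6 at CLSTN1 and CLSTN2. Of the 40 sites of these genes in the GR library none had a methylated read, of the 21 in the IgG control 6 had one, and of the 23 in the BMAL1-CLOCK library 1 had one.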

How the data were processed

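BisChIP-seq of HEK-293T cells was analysed in 4 libraries, an anti-Flag pull-down of GR and of BMAL1-CLOCK, each with its IgG control. Per the labels and the methods, the authors merged 2 runs per library, mapped reads to hg18 with Bismark (version not given in the sources used here), left out read-pair overlap, removed duplicates with SAMtools and listed cytosines with at least 4 reads. The deposited tables hold read counts, methylated and total, for every listed cytosine, not normalized, and the unsigned distance to the nearest TSS. Library totals are not given, so depth is known only at the listed sites.

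Repeated rows of the GR tables were dropped (28 member rows gave 12 AGAACA sites). The level was methylated reads over all reads. Both GR tables spell the motif as AGAACA in their sequence field, so it was taken from each table's name. A site was called a repeat where all its letters were lower case. Shares have exact Clopper-Pearson 95% intervals. For counts of 0, an upper value given alone is a floor of 3 counts over the total. It is a rougher bound that can lie below the upper end of the exact interval, as for 0 of 55 reads (5.45% against 6.49%). At very few reads it lies above that end, as for 0 of 4 reads (75% against 60.2%). The binomial test was checked on simulated data, with fully methylated sites among sites drawn at the pooled level of their table. Its power at lower levels was not checked. The sites named were those with a methylated read, per table the 3 deepest, the 3 nearest to a TSS and the farthest, those read in both GR libraries or on both strands, and genes with at least 3 sites, of which some are given by counts only. Members, gene groups and tests were chosen with earlier results of these data known. Alternatives changed distance, depth, repeats, thresholds and the genes left out. Python 3.11.15, pandas 2.3.3, scipy 1.17.1, numpy 2.4.6 and matplotlib 3.10.9 were used.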

Additional observations from a re-analysis of the deposited data

How the results depend on the processing

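Of 116 alternative values over 21 results, 88 stayed near the main value and 28 moved. Whether an alternative reversed a direction was not assessed. The number of member sites in the GR library (104) was 21 within 100 kb, 0 at 8 or more reads, 68 without PCDH20 and 33 outside chromosome 13, an alternative added after seeing the data. For the IgG control (61) the same alternatives gave 15, 0, 36 and 17. For BMAL1-CLOCK (57) the count was 13 within 100 kb, 5 at 8 or more reads and 36 outside chromosome 13. The share beyond 100 kb in the GR library (79.8%) was 87.5% beyond 50 kb, 66.3% beyond 200 kb and 69.1% without PCDH20. For the IgG control (75.4%) it was 86.9% beyond 50 kb, 58.3% without PCDH20 and 52.9% outside chromosome 13, and for BMAL1-CLOCK (77.2%) it was 59.6% beyond 200 kb. The share of GR members without a methylated read (98.1%) was 100% within 100 kb and 100% outside repeats, and that of the IgG control (70.5%) was 53.8% at 5 or more reads. The share of IgG members at 50% or more (1.64%) was 24.6% at a threshold of 25%, 0% at 75%, 0% at 5 or more reads and 0% within 100 kb. The pooled level of GR members (0.441%) was 0% within 100 kb. The share in repeats was 19.0% within 100 kb in the GR library (40.4%) and 61.5% at 5 or more reads in the IgG control (41.0%). These alternatives keep other or fewer sites by construction.

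With 1 library per group no replicate was left out. Sites with 4 reads do not resolve small differences in level. The list of at least 4 reads hides cytosines that were read less, so a gene without a site was not shown to lack the motif or the methylation.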
